A study of Danio rerio with 9 samples.

Results

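The integrated stress response and the unfolded protein response were followed in ventricles of adult zebrafish through 10 genes chosen by name. They were the transcription factor genes *atf4a*, *atf4b*, *atf3*, *ddit3* and *xbp1*, the feedback gene *trib3*, the enzyme genes *asns* and *chac1*, and the endoplasmic reticulum (ER) chaperone genes *hspa5* and *hsp90b1*. Each was found as 1 row among the 30628 genes of the table, and all 10 passed the filter on low counts, which left 21216 genes to test. Ventricles came from fish of 6 months and of 3 genotypes, with 3 libraries per genotype and 5 pooled ventricles per library. The first group was WT. The second, *mtor* xu015/+, carried the xu015 allele of *mtor* on a single copy, in the gene that encodes the growth-regulating kinase mTOR. The third, *Tg(cmlc2:tfeb)*, carried a transgene that expresses *tfeb*, an autophagy and lysosome transcription factor, from the *cmlc2* promoter. That promoter is active in cardiomyocytes, whereas each library held RNA of every cell type of the ventricle. Controls were described as WT siblings, without the line they belonged to, and the same 3 WT libraries were set against both lines. The table tags the WT columns with 9 months, which differs from the 6 months of the labels.

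The integrated stress response begins with kinases that phosphorylate the translation initiation factor eIF2alpha. General protein synthesis then falls while the mRNA of ATF4 is translated more, and ATF4 raises genes for amino acid synthesis and transport, together with *DDIT3* (CHOP), *TRIB3* and *CHAC1*. The unfolded protein response starts in the ER, where the sensors PERK, IRE1 and ATF6 react to misfolded proteins. PERK is also an eIF2alpha kinase, IRE1 splices the mRNA of XBP1, and ATF6 and spliced XBP1 raise chaperones such as BiP (*hspa5*) and GRP94 (*hsp90b1*). Phosphorylation, translation and splicing are not visible in a count per gene, so the values below describe mRNA levels only.

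Of the core stress genes, *asns* alone passed the adjusted p against WT in the edgeR fit without a replicate block, in *Tg(cmlc2:tfeb)*. DESeq2 added *hspa5* (adjusted p = 0.0497). With the library number as a block, edgeR added *trib3*, with a lower level (log2 fold change -0.59, adjusted p = 0.00615). The library numbers were not taken as pairs. In *Tg(cmlc2:tfeb)* versus WT, 0 of the 10 genes were differentially expressed genes (DEGs), that is, genes changed by 1.5-fold or more with an adjusted p under 0.05, against 14.9% of all tested genes. *asns*, which encodes asparagine synthetase, had a 1.48-fold higher level there, just short of the fold threshold. In *mtor* xu015/+ versus WT, 0 of the 10 genes were DEGs, where 0.0236% of all genes were. Between the lines, *atf3* was 2.73-fold higher in *Tg(cmlc2:tfeb)* than in *mtor* xu015/+ and was the only DEG among the 10, against 16% of all genes. This call was lost when any *mtor* xu015/+ library, or the first or second *Tg(cmlc2:tfeb)* library, was left out. In libraries from whole ventricles, fewer cells of a type and less RNA per cell cannot be told apart.

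Total estimated counts were between 35440229 and 45273885 per library. *tfeb* had 1843 ± 283 normalized counts in WT, 1815 ± 280 in *mtor* xu015/+ and 19107 ± 9199 in *Tg(cmlc2:tfeb)* (SD, n = 3 each), and the third *Tg(cmlc2:tfeb)* library was the lowest of its group with 8783. *mtor* had 4365 ± 2068 normalized counts in WT and 6283 ± 958 in *mtor* xu015/+ (adjusted p = 0.697), so its level gave no check of the mutant label. It was 1891 ± 18 in *Tg(cmlc2:tfeb)*, lower than in WT by edgeR (log2 fold change -1.21, adjusted p = 0.0153), a call lost without the second *Tg(cmlc2:tfeb)* library (adjusted p = 0.0518). Cardiomyocyte markers were present in every library. Of 8 marker rows, which stood for 7 gene names, 7 had a lower mean in *Tg(cmlc2:tfeb)* than in WT, 1 of them a DEG. Over all tested genes, 49.9% had a positive log2 fold change there, 7.49% were downregulated DEGs and 7.41% upregulated DEGs. All 6 cycling cell markers were DEGs in *Tg(cmlc2:tfeb)*, with a summed level of 2937 to 5366 against 812 to 914 in WT and 801 to 896 in *mtor* xu015/+. Summed erythrocyte markers were 185243 to 240435 in *Tg(cmlc2:tfeb)*, 141597 to 160052 in WT and 87658 to 112738 in *mtor* xu015/+. No listed marker was at 0 in all libraries of a group.

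*atf4a* and *atf4b* are the zebrafish copies of *ATF4*, the central transcription factor gene of the integrated stress response. On chromosome 6 (269204 to 272554, GRCz11 coordinates as in the table), *atf4a* had 7042, 6005 and 6053 normalized counts in the WT libraries 1 to 3, 7475, 5761 and 6776 in *mtor* xu015/+, and 6496, 5687 and 6282 in *Tg(cmlc2:tfeb)*. Normalized counts are estimated counts per scaled library size, brought back to the mean library size. The 3 groups overlapped. The log2 fold change of *atf4a* in *Tg(cmlc2:tfeb)* versus WT was -0.05 with a 95% interval from -0.30 to 0.20 (adjusted p = 0.785 by edgeR), so a change of 1.5-fold lay outside the interval in either direction. *atf4b* (chromosome 3, 24197934 to 24200819) had 2938, 2584 and 3639 normalized counts in WT, 3018, 2619 and 2792 in *mtor* xu015/+, and 2843, 2800 and 2636 in *Tg(cmlc2:tfeb)*. Its highest and lowest values were both in WT, and its log2 fold change in *Tg(cmlc2:tfeb)* versus WT was -0.15 (interval -0.42 to 0.12, adjusted p = 0.419).

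*ddit3* encodes CHOP, a transcription factor that ATF4 induces and that is linked to cell death under lasting ER stress. It lies on chromosome 6 (58915889 to 58919086) and had 560, 571 and 650 normalized counts in WT, 708, 593 and 658 in *mtor* xu015/+, and 763, 666 and 471 in *Tg(cmlc2:tfeb)*. The *Tg(cmlc2:tfeb)* libraries spanned the range of both other groups. The log2 fold changes against WT were 0.10 in *Tg(cmlc2:tfeb)* (adjusted p = 0.704) and 0.14 in *mtor* xu015/+ (adjusted p = 0.876).

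*xbp1* encodes the transcription factor that IRE1 activates through splicing of its mRNA. Its normalized counts (chromosome 5, 15944411 to 15948920) were 2798, 2597 and 2974 in WT, 3195, 2461 and 4547 in *mtor* xu015/+, and 2777, 2543 and 2143 in *Tg(cmlc2:tfeb)*. The third *mtor* xu015/+ library was the highest of all 9, and the second was below all of WT. No comparison passed the adjusted p for *xbp1* with every library in the fit, and the lowest adjusted p was 0.124, between the lines (log2 fold change -0.45, unadjusted p = 0.0451). Without the second *mtor* xu015/+ library, *xbp1* was a DEG between the lines (log2 fold change -0.64, adjusted p = 0.0275).

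*atf3* encodes a stress-induced transcription factor that also belongs to the immediate early genes. On chromosome 20 (37794633 to 37800737), it had 135, 81.5 and 251 normalized counts in WT, 89.5, 92.0 and 78.9 in *mtor* xu015/+, and 337, 215 and 156 in *Tg(cmlc2:tfeb)*. The *mtor* xu015/+ libraries were alike and low, whereas WT and *Tg(cmlc2:tfeb)* each spread widely and overlapped each other. Against WT the log2 fold change was 0.60 in *Tg(cmlc2:tfeb)* (interval -0.25 to 1.45, adjusted p = 0.290) and -0.85 in *mtor* xu015/+ (interval -1.74 to 0.05, adjusted p = 0.644). With 1 library left out, these values ranged from 0.26 (without the first *Tg(cmlc2:tfeb)* library) to 1.12 (without the third WT library) and from -1.15 (without the second WT library) to -0.32 (without the third), and none passed the adjusted p. Between the lines the groups did not overlap, as was the case for 41.8% of all genes, and the log2 fold change was 1.45 ± 0.39 (SE, adjusted p = 0.0257 by edgeR). Leaving out any *mtor* xu015/+ library, or the first or second *Tg(cmlc2:tfeb)* library, ended this call, with log2 fold changes of 1.11 to 1.52 and adjusted p values of 0.0519 to 0.0805. The immediate early genes listed as markers had a summed level of 1096 to 1215 in *Tg(cmlc2:tfeb)*, 1420 to 1935 in *mtor* xu015/+ and 1276 to 2511 in WT. Of these 7, 1 was a DEG between the lines, lower in *Tg(cmlc2:tfeb)*, as were 7.95% of all genes. The part of the immediate early genes in the *atf3* values was not tested.

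**Figure D1:**
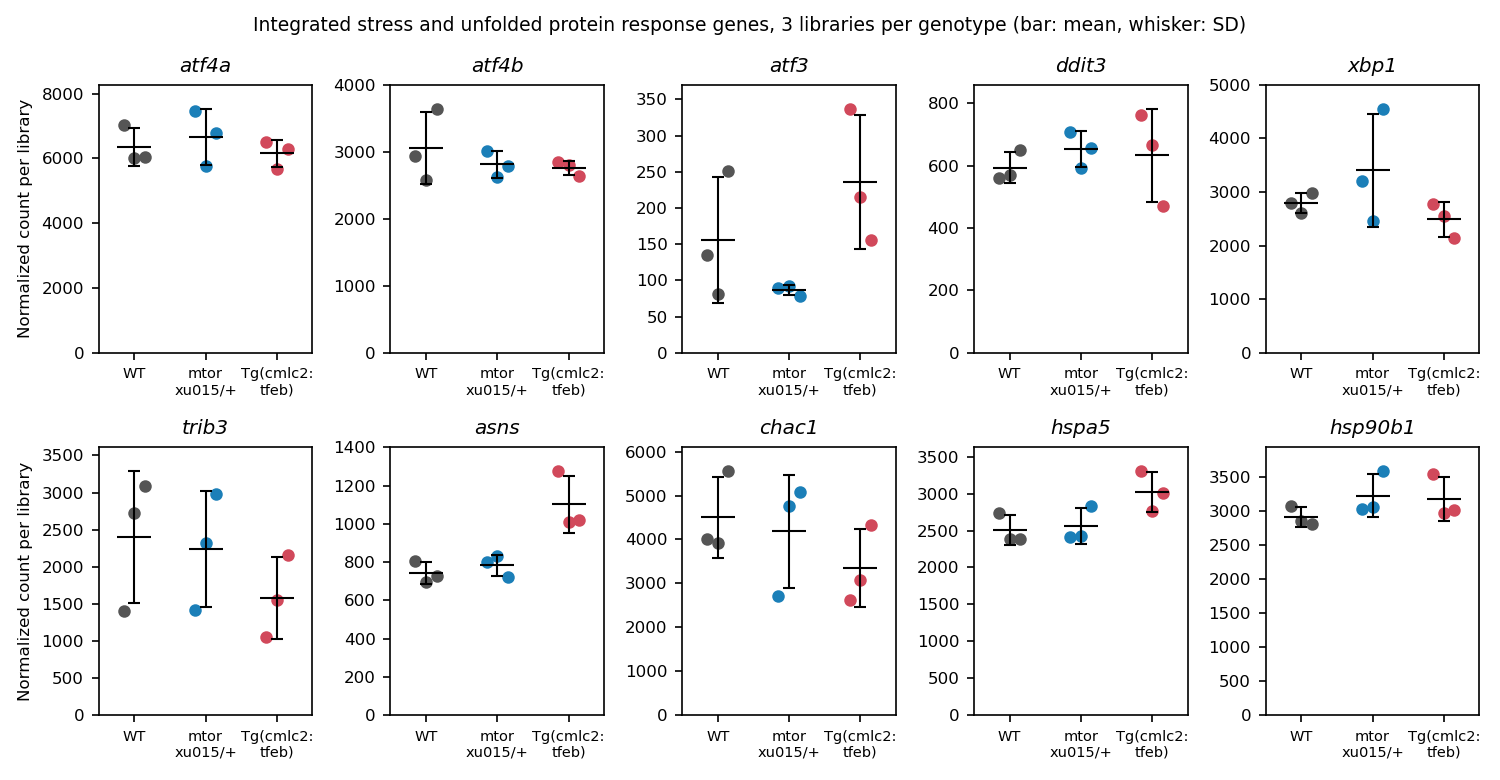
Normalized counts of the 10 stress response genes in each of the 9 libraries, in a panel per gene with an axis from 0; points are libraries 1 to 3 from left to right within a genotype, horizontal bars are means and whiskers are SDs (n = 3). The *Tg(cmlc2:tfeb)* points of *asns* lie above all other points of that panel, those of *hspa5* lie above WT only, and *trib3*, *chac1* and *atf3* spread widely within genotypes.

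Of the feedback gene *trib3* and the enzyme genes *asns* and *chac1*, *asns* was the only one that passed the adjusted p against WT in the edgeR fit without a replicate block. Asparagine synthetase makes asparagine from aspartate and glutamine, and its gene is a classical ATF4 target. On chromosome 19 (25656812 to 25678002), *asns* had 805, 695 and 727 normalized counts in WT, 798, 830 and 721 in *mtor* xu015/+, and 1276, 1010 and 1019 in *Tg(cmlc2:tfeb)*. Every *Tg(cmlc2:tfeb)* library was above every other library, while WT and *mtor* xu015/+ overlapped. All *Tg(cmlc2:tfeb)* libraries were above all of WT for 21.1% of genes and above all of *mtor* xu015/+ for 21.3%. The share above both groups at once was not computed. The fold was 1.48 (95% interval 1.25 to 1.77, log2 fold change 0.57 ± 0.11 SE, adjusted p = 0.00685 by edgeR) against WT and 1.41 against *mtor* xu015/+ (interval 1.18 to 1.67, adjusted p = 0.0116), where 24.3% of all genes passed. In *Tg(cmlc2:tfeb)* versus WT, 22% of all genes passed the adjusted p at any fold, and 10.6% did so with a higher level. The value lay at the edge of the DEG rule, so that *asns* counted as a DEG versus WT without the first WT library (log2 fold change 0.63), without the second *Tg(cmlc2:tfeb)* library (0.63) or without the third (0.62). In *mtor* xu015/+ versus WT the log2 fold change was 0.08 (interval -0.17 to 0.33, adjusted p = 0.906).

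*trib3* encodes a pseudokinase that is induced by ATF4 and CHOP and restrains them in mammalian cells. It lies on chromosome 11 (24058530 to 24063196) and had 1401, 2722 and 3085 normalized counts in WT, 1421, 2324 and 2978 in *mtor* xu015/+, and 1049, 1547 and 2152 in *Tg(cmlc2:tfeb)*. In every genotype the library numbered 1 was the lowest and that numbered 3 the highest, and the 3 groups overlapped. Its log2 fold change was -0.60 ± 0.36 (SE) in *Tg(cmlc2:tfeb)* versus WT, with an interval from -1.41 to 0.20 (adjusted p = 0.263, and -0.89 to -0.37 with a library left out), and -0.10 in *mtor* xu015/+ versus WT (adjusted p = 0.967).

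*chac1* encodes an enzyme that degrades glutathione and is a target of the ATF4 and CHOP branch in mammals. Its normalized counts (chromosome 20, 28266892 to 28269462) were 4016, 3929 and 5556 in WT, 2701, 4757 and 5085 in *mtor* xu015/+, and 2625, 3065 and 4336 in *Tg(cmlc2:tfeb)*. The groups overlapped, and the library numbered 3 was again the highest of each genotype. The log2 fold change in *Tg(cmlc2:tfeb)* versus WT was -0.43 (interval -1.01 to 0.16, adjusted p = 0.271, and -0.66 to -0.25 with a library left out). For *mtor* xu015/+ versus WT it was -0.11 (interval -0.69 to 0.48, adjusted p = 0.946).

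*hspa5* encodes BiP, the ER chaperone of the HSP70 family that also holds the ER stress sensors in check. Its normalized counts (chromosome 5, 2713779 to 2721686) were 2738, 2392 and 2386 in WT, 2412, 2426 and 2837 in *mtor* xu015/+, and 3305, 2764 and 3008 in *Tg(cmlc2:tfeb)*. All *Tg(cmlc2:tfeb)* libraries were above all WT libraries, as held for 21.1% of tested genes, and they overlapped those of *mtor* xu015/+. The fold versus WT was 1.21 (interval 1.03 to 1.41) with an unadjusted p of 0.0242 and an adjusted p of 0.0857 by edgeR. With DESeq2 its adjusted p was 0.0497. Between *mtor* xu015/+ and WT the fold was 1.02 (interval 0.87 to 1.20, adjusted p = 0.964).

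*hsp90b1* encodes GRP94, the HSP90 paralogue of the ER. On chromosome 4 (9836465 to 9843836), it had 3076, 2854 and 2804 normalized counts in WT, 3022, 3057 and 3584 in *mtor* xu015/+, and 3546, 2963 and 3019 in *Tg(cmlc2:tfeb)*. The groups overlapped. Versus WT the fold was 1.09 in *Tg(cmlc2:tfeb)* (interval 0.93 to 1.27, adjusted p = 0.402) and 1.11 in *mtor* xu015/+ (interval 0.95 to 1.29, adjusted p = 0.773), so that a change of 1.5-fold lay outside both intervals.

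**Figure D2:**
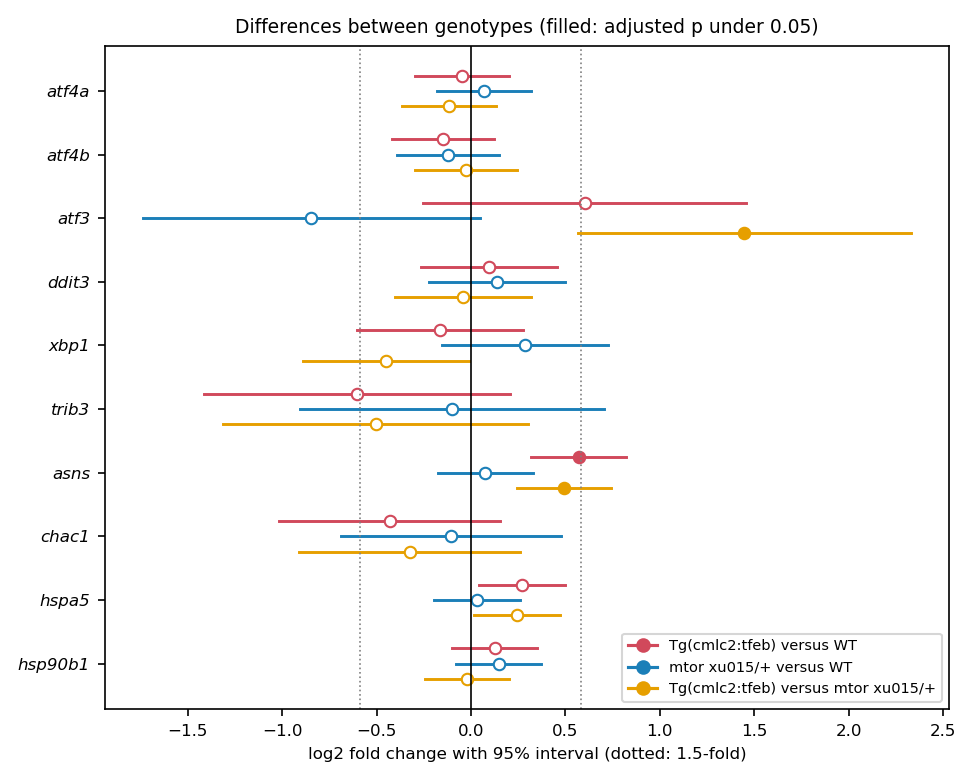
Log2 fold changes of the 10 stress response genes with 95% intervals in the 3 comparisons, where filled points have an adjusted p under 0.05 and dotted lines mark 1.5-fold. Filled points are *asns* in both comparisons of *Tg(cmlc2:tfeb)* and *atf3* between the lines, and all 10 points of *mtor* xu015/+ versus WT are open.

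Across the 10 genes, the differences were about as large as across all tested genes. In *Tg(cmlc2:tfeb)* versus WT, the median absolute log2 fold change was 0.22 for the 10 genes and 0.28 for all tested genes, and 2 of 10 (*asns* and *hspa5*) had an unadjusted p under 0.05 against 35.7% of all genes. DESeq2 and limma-voom also called 0 of the 10 as DEGs in this comparison. For *mtor* xu015/+ versus WT the medians were 0.11 and 0.14, and edgeR gave 0 of 10 genes an unadjusted p under 0.05, against 7.86% of all genes. DESeq2 and limma-voom called 0 of 10 as DEGs there, where they called 68 and 0 of all genes. DESeq2 gave 1 of the 10, with a lower level, an unadjusted p under 0.05, and its share over all genes was not computed. Between the lines the medians were 0.28 and 0.30. The genes differed most in how far libraries of the same genotype lay apart. The SD of the log2 level within genotypes was 0.57 for *atf3* and 0.56 for *trib3*, larger than for 88.3% and 88.0% of tested genes, and 0.39 for *chac1*. *hspa5* and *hsp90b1* had SDs of 0.13 and 0.12, below the median of all genes (0.21), and *asns* had 0.14. The SEs of the log2 fold changes in *Tg(cmlc2:tfeb)* versus WT accordingly ranged from 0.10 for *hsp90b1* to 0.38 for *atf3*.

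**Figure D3:**
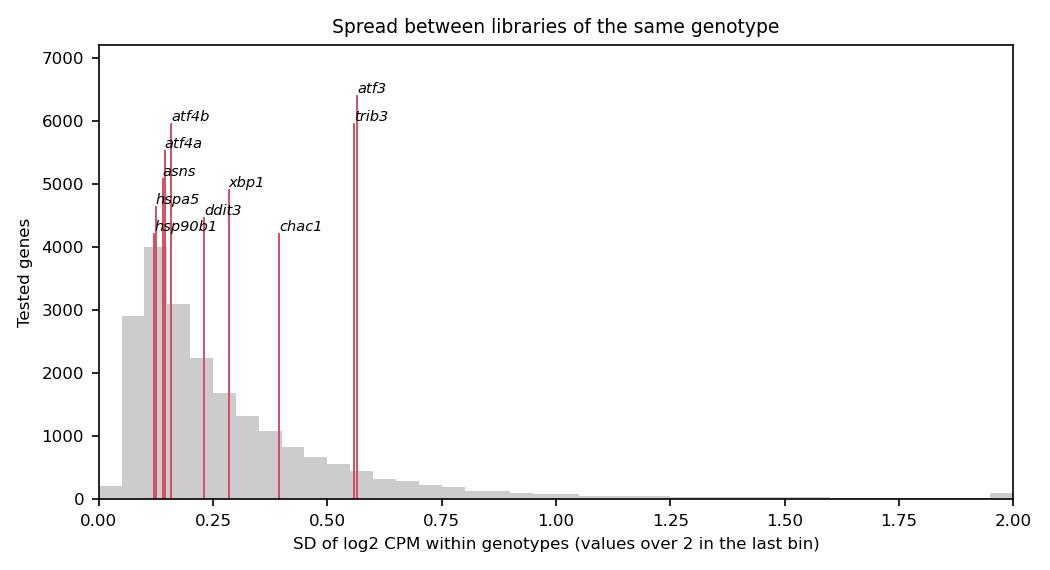
Histogram of the SD of log2 CPM between libraries of the same genotype for all tested genes (number of genes on the vertical axis, values over 2 in the last bin), with lines for the 10 stress response genes, whose heights only separate the names. *atf3* (0.57) and *trib3* (0.56) lie far to the right of the median of 0.21, and *hsp90b1* (0.12) and *hspa5* (0.13) to its left.

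Some of the 10 genes had their extreme libraries in common. *trib3* and *chac1* had the same highest library in every genotype, a pattern that 3.69% of tested genes shared with *trib3*. The chaperone genes *hspa5* and *hsp90b1* were highest in the first WT, the third *mtor* xu015/+ and the first *Tg(cmlc2:tfeb)* library, as were 5.18% of genes. They also had their lowest libraries in common, as did *atf4b* and *xbp1*. The share of genes with the same lowest libraries was not computed. *atf4b* and *ddit3* had the same highest libraries (4.32% of genes). These are descriptions over 9 libraries and 45 gene pairs, without a test.

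Genes around the core set were then counted in 7 lists, with 137 tested genes in all. In *Tg(cmlc2:tfeb)* versus WT, 9 were upregulated and 9 downregulated DEGs, against 7.41% and 7.49% of all genes, and 24 and 11 passed the adjusted p at any fold, against 10.6% and 11.4%. Aminoacyl-tRNA synthetases made up 11 of these 24 genes, and ER chaperones and folding enzymes 1. In *mtor* xu015/+ versus WT, edgeR and limma-voom gave 0 of 137 genes an adjusted p under 0.05. Over all genes, only 0.0236% passed there by edgeR, so a count of 0 says little about these lists. DESeq2 called 0 of the 137 as DEGs there, against 68 over all genes. It gave 1 gene, from the list of ER stress sensors and with a higher level, an adjusted p under 0.05. By edgeR, 12 of the 137 had an unadjusted p under 0.05 there, 6 of them higher and 6 lower, where 7.86% of all genes did.

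**Figure D4:**
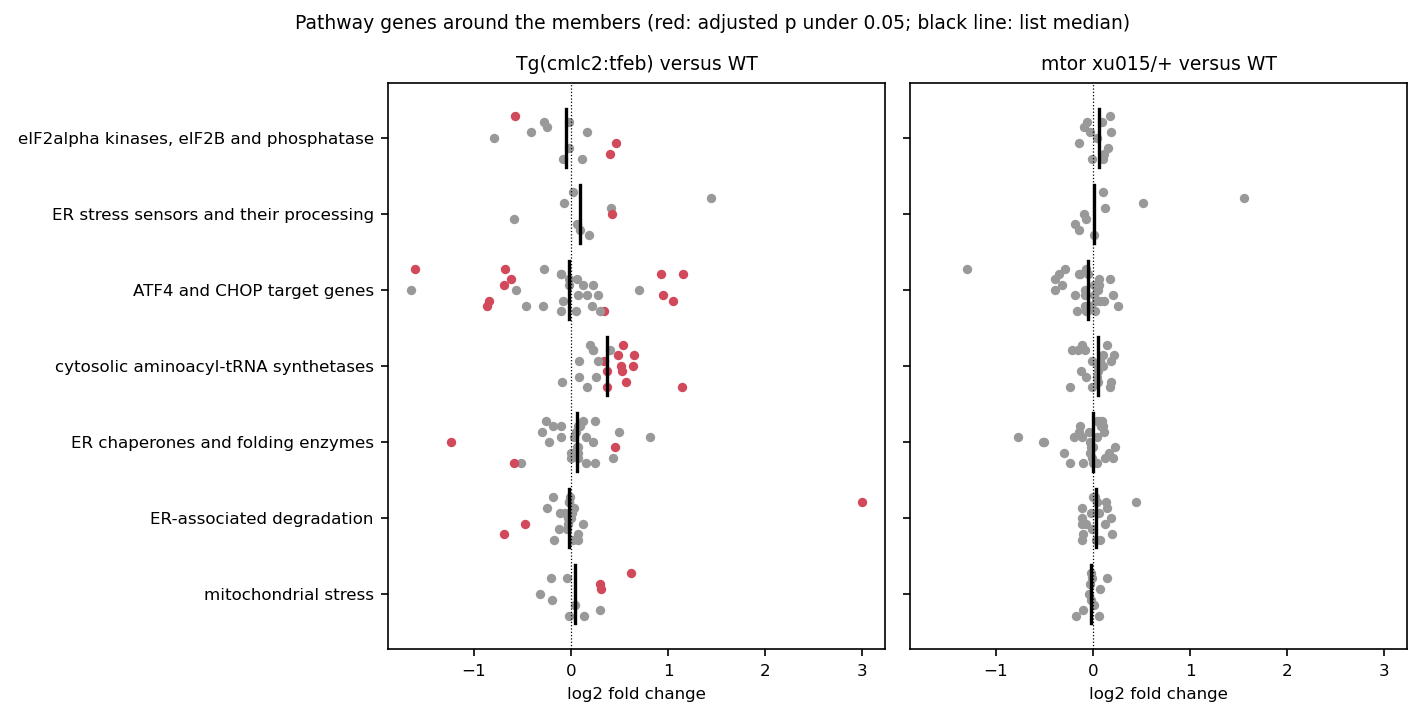
Log2 fold changes of the tested genes of 7 pathway lists in *Tg(cmlc2:tfeb)* versus WT and *mtor* xu015/+ versus WT; each point is a gene, red marks an adjusted p under 0.05 at any fold, and black lines are list medians. The tRNA synthetases of *Tg(cmlc2:tfeb)* are shifted to the right (median 0.37), *amfrb* is the point at 3.0, and the *mtor* xu015/+ panel holds no red point.

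Cytosolic aminoacyl-tRNA synthetases, which load amino acids onto tRNAs and include many ATF4 targets, were mostly higher in *Tg(cmlc2:tfeb)*. Of 21 genes, 11 passed the adjusted p with a higher level, 0 with a lower one, and 3 were DEGs. Over all genes, 10.6% passed with a higher level and 11.4% with a lower one, and 14.9% were DEGs. The list median was 0.37 on the log2 scale, against -0.00063 for all genes, and 20 of 21 genes had a positive value under each scaling and tool tried. *aars1* (alanyl-tRNA synthetase) had 921, 987 and 1010 normalized counts in WT and 2008, 2192 and 2231 in *Tg(cmlc2:tfeb)*, which gave a log2 value of 1.14 ± 0.08 (SE, adjusted p = 4.9e-05 by edgeR). Its *mtor* xu015/+ libraries had 787, 889 and 802, so that the *Tg(cmlc2:tfeb)* libraries stood above all others. They did so against WT for 21.1% of genes and against *mtor* xu015/+ for 21.3%, each taken alone. *gars1* (glycyl-tRNA synthetase) rose by 0.65 (adjusted p = 3.6e-04) and *sars1* (seryl-tRNA synthetase) by 0.64 (adjusted p = 0.00305). The DEG call of *sars1* fell below 1.5-fold without the second WT library (0.57) or the third *Tg(cmlc2:tfeb)* library (0.58). Against *mtor* xu015/+, 11 of 21 again passed with a higher level, as did 11.7% of all genes, and *aars1* (1.38), *qars1* (0.65), *mars1* (0.65) and *sars1* (0.59) were DEGs. The call of *sars1* between the lines held in 12 of 18 alternatives, and it fell under 1.5-fold with limma-voom (0.58), with only the groups compared (0.58), and without the first (0.58) or second (0.57) *mtor* xu015/+ library or the third *Tg(cmlc2:tfeb)* library (0.52). The list median in *mtor* xu015/+ versus WT was 0.05, and 0 of 21 genes passed, where 0.0236% of all genes did.

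Among 32 tested targets of ATF4 and CHOP beyond the core set, 4 were upregulated and 6 downregulated DEGs in *Tg(cmlc2:tfeb)* versus WT. Over all genes, 7.41% were upregulated and 7.49% downregulated DEGs. The list median was -0.02. *psat1*, an enzyme of serine synthesis, had 158, 144 and 175 normalized counts in WT and 343, 314 and 334 in *Tg(cmlc2:tfeb)* (log2 fold change 1.06, adjusted p = 4.7e-04 by edgeR). *mthfd2*, a mitochondrial folate enzyme, had 444, 527 and 358 in WT and 747, 883 and 926 in *Tg(cmlc2:tfeb)* (0.94, adjusted p = 0.00523). *atf5a*, a copy of the stress transcription factor gene *ATF5*, rose by 0.93 (adjusted p = 0.00701), and *slc7a3a*, a cationic amino acid transporter gene, rose by 1.16 (adjusted p = 0.00711). For each of these 4 genes the *Tg(cmlc2:tfeb)* libraries stood above both other groups. Over all genes, they stood above all of WT for 21.1% and above all of *mtor* xu015/+ for 21.3%, each taken alone. In the other direction, the lipoprotein receptor gene *vldlr* had 2353, 2710 and 2612 normalized counts in WT and 1500, 1362 and 1340 in *Tg(cmlc2:tfeb)* (log2 fold change -0.87, adjusted p = 2.3e-04). The amino acid transporter genes *slc38a2* (-0.68) and *slc6a9* (-0.85), *nupr1a* (-0.62), *stc2a* (-0.69) and *ndrg1b* (-1.60) were also downregulated. The call of *stc2a* held with any library left out, whereas those of *slc6a9* (without the second *Tg(cmlc2:tfeb)* library, adjusted p = 0.0559), *slc38a2* (without the third WT or the first or second *Tg(cmlc2:tfeb)* library, up to 0.0648), *nupr1a* (without the first or second WT or the first or the third *Tg(cmlc2:tfeb)* library, up to 0.0613) and *ndrg1b* (without any WT or *Tg(cmlc2:tfeb)* library or the first *mtor* xu015/+ library, up to 0.128) did not. Beside *asns*, the tRNA synthetases, *psat1* and *mthfd2*, the 6 cycling cell markers rose in the same libraries with a median log2 fold change of 2.88. Of 6 epicardium and fibroblast markers, 4 passed the adjusted p with a higher level, as did 10.6% of all genes, and 2 were DEGs. Their summed level was 15695 to 20131 against 12475 to 13172 in WT. Of 3 smooth muscle markers, 1 was a DEG, lower in *Tg(cmlc2:tfeb)*, with a summed level of 2296 to 2815 against 5363 to 6522. The part of these cell types in the differences was not tested.

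Of 12 tested genes for eIF2alpha kinases, eIF2 subunits, the exchange factor eIF2B and the phosphatase subunit, 0 were DEGs in *Tg(cmlc2:tfeb)* versus WT. Over all genes, 14.9% were. *eif2ak3*, which encodes PERK, had 285, 311 and 325 normalized counts in WT, 231, 320 and 280 in *mtor* xu015/+, and 382, 449 and 439 in *Tg(cmlc2:tfeb)*. The *Tg(cmlc2:tfeb)* libraries were above all others (above all of WT for 21.1% of genes and above all of *mtor* xu015/+ for 21.3%, each taken alone). The log2 fold change of *eif2ak3* versus WT was 0.46 (adjusted p = 0.0292 by edgeR), and its adjusted p reached 0.0555 to 0.0956 without any WT library or without the second or the third *Tg(cmlc2:tfeb)* library. Against *mtor* xu015/+ it was a DEG (0.61, adjusted p = 0.00817), and without the first *mtor* xu015/+ library or the second or the third *Tg(cmlc2:tfeb)* library the value fell to between 0.50 and 0.58, under 1.5-fold. The eIF2B subunit genes *eif2b1* and *eif2b2* passed in opposite directions versus WT (0.40 with adjusted p = 0.0119, and -0.58 with adjusted p = 0.00439), and *eif2b2* was a DEG against *mtor* xu015/+ (-0.75). Without the second WT library (-0.66) or the first *Tg(cmlc2:tfeb)* library (-0.63), *eif2b2* was a DEG versus WT as well. The other eIF2alpha kinase genes gave -0.27 for *eif2ak1* (HRI, adjusted p = 0.361, between -0.47 without the first and -0.012 without the second WT library), 0.16 for *eif2ak2* (PKR, adjusted p = 0.685) and 0.11 for *EIF2AK4* (GCN2, named in capitals in the table, adjusted p = 0.417). The phosphatase subunit gene *ppp1r15a* (GADD34), an ATF4 target that ends the response, gave -0.41 (adjusted p = 0.121), and the adjusted p was 0.0287 with only the groups compared and 0.0424 without the first *mtor* xu015/+ library. *ppp1r15b* did not pass the filter on low counts.

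For the ER sensors and their processing, 0 of 9 tested genes were DEGs in *Tg(cmlc2:tfeb)* versus WT, against 14.9% of all genes. *ern1*, which encodes IRE1, gave a log2 fold change of 0.02 (adjusted p = 0.888). *atf6* gave 0.19 (adjusted p = 0.361), and without the first WT library it gave 0.38 (adjusted p = 0.0243). *mbtps1*, the protease that cleaves ATF6 in the Golgi, was higher by 0.42 (adjusted p = 0.00384). *ern2* had 359, 392 and 375 normalized counts in WT, 557, 502 and 555 in *mtor* xu015/+, and 398, 370 and 299 in *Tg(cmlc2:tfeb)*. WT and *Tg(cmlc2:tfeb)* overlapped. The *mtor* xu015/+ libraries were above all of WT, as held for 6.48% of genes, and above all of *Tg(cmlc2:tfeb)*. By edgeR, none of the 9 tested genes, *ern2* included, passed the adjusted p in *mtor* xu015/+ versus WT, where 0.0236% of all genes did. DESeq2 gave 1 of the 9 an adjusted p under 0.05 in that comparison, with a higher level, and called 0 of them DEGs. The groups did not overlap between the lines for 41.8% of genes. Between the lines, the log2 fold change of *ern2* was -0.59 (adjusted p = 0.00482 by edgeR), a value at the 1.5-fold threshold. It fell under the threshold with upper-quartile normalization (-0.56), with a stricter low-count filter (-0.58), and without the first or the third *mtor* xu015/+ library (-0.57 each) or the third *Tg(cmlc2:tfeb)* library (-0.49).

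Of 30 further ER chaperone and folding enzyme genes, 2 were downregulated DEGs and 0 upregulated in *Tg(cmlc2:tfeb)* versus WT. Over all genes, 7.49% were downregulated and 7.41% upregulated DEGs. The list median was 0.07. *hspa13*, an HSP70-family member of the ER, had 356, 363 and 414 normalized counts in WT, 296, 267 and 237 in *mtor* xu015/+, and 170, 152 and 158 in *Tg(cmlc2:tfeb)*. The *Tg(cmlc2:tfeb)* libraries were below all others, with log2 fold changes of -1.24 versus WT (adjusted p = 2.0e-04 by edgeR) and -0.73 versus *mtor* xu015/+ (adjusted p = 0.00219). In either direction, the groups did not overlap for 42% of genes versus WT and for 41.8% between the lines. *sil1*, a nucleotide exchange factor gene of BiP, gave -0.59 versus WT, a value at the 1.5-fold threshold whose DEG call held in only 8 of 18 alternatives. It fell under 1.5-fold with DESeq2, limma-voom, RLE normalization, no low-count filter or a stricter one (-0.58 each), with upper-quartile normalization (-0.56), and without the third WT library (-0.54) or the second (-0.53) or the third (-0.57) *Tg(cmlc2:tfeb)* library. *pdia3*, a disulfide isomerase gene, was higher by 0.46 (adjusted p = 0.0184), and the adjusted p rose to at most 0.0649 without the first or the third WT library or the third *Tg(cmlc2:tfeb)* library.

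ER-associated degradation, which returns misfolded proteins to the cytosol for the proteasome, gave 1 upregulated and 1 downregulated DEG among 22 genes versus WT. The shares over all genes were 7.41% and 7.49%. The ubiquitin ligase gene copy *amfrb* had 1.0, 2.3 and 8.7 normalized counts in WT, 2.2, 2.8 and 11.3 in *mtor* xu015/+, and 34.2, 31.4 and 33.6 in *Tg(cmlc2:tfeb)* (log2 fold change 3.0 versus WT, adjusted p = 0.0149). The WT counts were few, and the adjusted p was 0.0522 without the first WT library and 0.0607 without the second. The lectin gene *os9* gave -0.69 (adjusted p = 0.0349 by edgeR). Its adjusted p was 0.0656 with only the groups compared, and up to 0.104 without any WT library or the second *Tg(cmlc2:tfeb)* library. Without the third *Tg(cmlc2:tfeb)* library, the value of *os9* fell under 1.5-fold (-0.48). *derl2*, a channel component, gave -0.47 (adjusted p = 0.00383). In the mitochondrial stress list, the chaperonin gene *hspd1* was the 1 DEG among 11 genes (0.62, adjusted p = 0.0121), where 14.9% of all genes were DEGs. Its value fell under 1.5-fold without the second or the third WT library or the first or the third *Tg(cmlc2:tfeb)* library (0.52 to 0.56).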

How the data were processed

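RNA of ventricles from 9 pools, 3 per genotype, was sequenced as read pairs. The authors deposited an estimated count per gene and library, with columns labelled as scaled TPM. The submitters' processing notes name bcl2fastq (2.17), Trimmomatic (0.36), STAR (2.5.2b) and GRCz11, whereas the paper's methods name TopHat and Cufflinks. The tool that made the table is not given in the sources used here. A share of 58.5% of low values (0.5 to 5.5) was within 0.1 of a whole number, so whether the values are reads or rescaled abundances was not settled, and levels were not compared between genes. How reads of near-identical genes were assigned, and whether strand was used, is not given in the sources used here.

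Columns were matched to samples by name, with 0 columns unmatched. The expected counts were rounded, filtered with filterByExpr, normalized with TMM (factors 0.946 to 1.08) and fitted with the quasi-likelihood test of edgeR (4.0.16, R 4.3.3) over all 9 libraries. P-values were two-sided, adjusted by the Benjamini-Hochberg method over 21216 genes. Confidence intervals are 95% intervals of that fit, unadjusted. The paper's Cuffdiff test needs alignments and was not used. With it, the paper reported more DEGs in *mtor* xu015/+ versus WT than the edgeR fit gave, and fewer in *Tg(cmlc2:tfeb)* versus WT. From the same counts, DESeq2 called 68 DEGs in *mtor* xu015/+ versus WT, against 5 by edgeR. The paper's top pathways for its own DEGs of *mtor* xu015/+ versus WT included protein folding and the unfolded protein response. That pathway analysis was not repeated. Counting error was not estimated apart from the spread between libraries, and genes such as *amfrb* had few counts. Exact permutation of 3 against 3 libraries cannot go below p = 0.1. The functions were tested on simulated data. The labels name 3 biological replicates of 5 pooled ventricles per genotype.

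The 10 genes and the lists were chosen with earlier results of these data known. Named genes were the 10, *mtor*, *tfeb*, the sensors and phosphatase subunits, and up to 5 DEGs per list and comparison with the smallest p among those without overlap. Further list genes were named after their values were seen. Gene names were matched exactly, and *atf6b*, *creb3l4* and *gdf15* were not matched. Among the cell markers, the cardiomyocyte marker *vmhc* and the neutrophil marker *mmp13a.1* were not matched either. *creb3l3a*, *phgdh*, *slc7a5*, *fgf21* and the lymphocyte markers *cd4-1* and *cd8a* did not pass the filter. Alternatives were DESeq2 (1.42.0), limma-voom (limma 3.58.1), RLE and upper-quartile normalization, other filters and fold thresholds, unrounded values, the replicate number as a block, only the groups compared, and each library left out.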

Additional observations from a re-analysis of the deposited data

How the results depend on the processing

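The same alternatives were run for the 10 genes and, chosen after seeing the data, for the named list genes. Of the 10 genes, the number of DEGs in *Tg(cmlc2:tfeb)* versus WT was 0, and it was 1 with upper-quartile normalization or no fold threshold (*asns*), 1 with the replicate block (*trib3*, log2 fold change -0.59, adjusted p = 0.00615), and 0 to 1 with a library left out. In *mtor* xu015/+ versus WT it was 0 under every alternative run. Between the lines it was 1, it was 2 with no fold threshold, and 0 to 1 with a library left out. Over all genes, DEGs of *mtor* xu015/+ versus WT numbered 5, against 68 with DESeq2, 0 with limma-voom, 9 without a low-count filter, 0 with a stricter one, 0 with only the groups compared, 0 with the replicate block, 0 without rounding and 0 to 5 with a library left out. At 2-fold, 1973 genes were DEGs in *Tg(cmlc2:tfeb)* versus WT instead of 3161 and 2078 between the lines instead of 3404, and without a fold threshold 5157 were between the lines. The cause of these shifts was not tested, apart from the thresholds themselves.

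Over all tested genes, deviations of same-numbered libraries of different genotypes had correlations of -0.024 to 0.089 (0 of 9 over 0.1), and the numbers were not taken as pairs. A correlation over all genes cannot show whether single genes such as *trib3* shared an effect of the library number. Of 9 libraries, 5 correlated best with their own number. With the replicate block, *trib3* also had an adjusted p of 0.00995 between the lines (log2 fold change -0.50), *ppp1r15a* had 0.0476 versus WT, and *sil1* versus WT and *sars1* between the lines fell under 1.5-fold (-0.58 and 0.58).

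Directions that reversed belonged to small values far from the threshold. With upper-quartile normalization the log2 fold changes of *atf4b* and *hsp90b1* between the lines were 0.011 and 0.018. With a library left out, values versus WT in *Tg(cmlc2:tfeb)* ranged from -0.091 to 0.028 for *atf4a*, -0.055 to 0.27 for *ddit3*, -0.0075 to 0.40 for *eif2ak2* and -0.0017 to 0.031 for *ern1*. In *mtor* xu015/+ versus WT they ranged from -0.022 to 0.16 for *atf4a*, -0.23 to 0.025 for *atf4b*, -0.27 to 0.13 for *chac1*, -0.37 to 0.14 for *trib3* and -0.051 to 0.10 for *hspa5*. Between the lines they ranged from -0.075 to 0.027 for *atf4b*, -0.19 to 0.13 for *ddit3* and -0.10 to 0.062 for *hsp90b1*.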

Other observations

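Several stress genes exist as copies in zebrafish, and their log2 fold changes in *Tg(cmlc2:tfeb)* versus WT were not alike in size or sign. *atf5a* was upregulated (0.93), while *atf5b* gave 0.23 (adjusted p = 0.105 by edgeR). *amfrb* gave 3.0 and *amfra* 0.02 (adjusted p = 0.868). *nupr1a*, a stress-induced chromatin protein gene, was downregulated (-0.62), while *nupr1b* gave 0.70 (adjusted p = 0.0742). *clpxb*, a subunit gene of the mitochondrial protease ClpXP, gave 0.31 (adjusted p = 0.0375) and *clpxa* -0.21 (adjusted p = 0.133), and the adjusted p of *clpxb* rose to up to 0.121 without any WT or *Tg(cmlc2:tfeb)* library or the second *mtor* xu015/+ library. The difference between copies was not tested, and how reads shared by copies were assigned is not known.

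*ddit4*, a stress-induced inhibitor of mTOR complex 1 and an ATF4 target, had a larger SE than any of the 10 core genes in *Tg(cmlc2:tfeb)* versus WT. It had 784, 1296 and 1057 normalized counts in the WT libraries 1 to 3, 45.3, 883 and 1458 in *mtor* xu015/+, and 73.5, 268 and 670 in *Tg(cmlc2:tfeb)*. The *Tg(cmlc2:tfeb)* libraries were below all WT libraries (these groups did not overlap, in either direction, for 42% of genes). The log2 fold change of -1.65 ± 0.95 (SE) did not pass the test (adjusted p = 0.249 by edgeR). As for *trib3*, the library numbered 1 was the lowest of each genotype, a pattern whose share over all genes was not computed.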
